A study of Mus musculus with 6 samples.

Results

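GATA4 and GATA6 are zinc finger transcription factors that bind the same DNA motif and direct the primitive endoderm (PrE), the layer of the blastocyst that gives rise to the yolk sac. Extra-embryonic endoderm (XEN) cells are stem cell lines of that lineage. The regions described here are the promoters at which the combined GATA4 list of this study holds a region and the combined GATA6 list holds none. They numbered 1972 of the 8282 regions of the combined GATA4 list. A region was a member when it overlapped no region of the combined GATA6 list and a transcription start site (TSS) of a protein-coding or lncRNA gene, of any annotated transcript, stood no more than 1 kb from its midpoint. The members were thus chosen by the calls of both factors, and their GATA6 support and GATA4 signal are given as descriptions. The regions closest to them are the 2051 promoter regions present in both combined lists, called shared promoter regions below, and the 2566 GATA4-list-only regions farther than 1 kb from any TSS, called distal regions.

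CUT&RUN, in which an antibody tethers a nuclease that cuts the DNA beside the bound protein, was carried out on 500000 XEN cells per reaction for both factors, with 3 libraries each and 6 in all. The labels give the genotype 3F2 for every library, so no wild-type line and no knockout entered the comparison. The 3F lines were derived from blastocysts carrying a doxycycline-inducible Oct4, Klf4, Sox2 and mCherry cassette, the M2rtTA transactivator in Rosa26 and an Oct4-GFP reporter, and the cells profiled were the starting XEN cells. The methods text names the line 3F6 beside 3F2 and fewer replicates than the labels. It was not stated that the 3 libraries of a factor came from separate cultures, so each SD measures the spread between libraries, which may be technical. No RNA was measured in these libraries, so the cell type was not checked against expressed markers. Each library had its own list of called regions, with 46646 to 49597 regions for GATA4 and 42446 to 46484 for GATA6, and reads left after filtering are unknown. All positions are in mm10.

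Promoters differ from enhancers in their DNA. Many mouse promoters lie in CpG islands, are rich in GC, are open in most cells and hold motifs of general promoter factors such as SP and KLF proteins, NFY, NRF1 and ETS proteins. The GATA motif is A/T-rich and occurs by chance less often in such sequence. GATA factors are known mainly for binding enhancers, and a region called at a promoter can hold the motif or lack it.

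Sequence windows of 6 members that no GATA6 library called are shown first, because they hold a GATA motif (the letters AGATAA, in which the first base may also be T and the last may also be G, on either strand). The capitals mark the motif. Each window is 150 bases of GRCm38, holds no annotated exon and is written 5′ to 3′ on the strand of the gene with the nearest TSS. They were the 6 of highest GATA4 signal for which such a window could be taken. Stmn1, which encodes a microtubule-destabilising protein, has its window at chr4:134467773-134467922 on the plus strand, outside any gene. Snx1 (a sorting nexin of the retromer pathway) lies at chr9:66092312-66092461 on the minus strand, in an intron of Snx1. Tpr (a nuclear pore protein) lies at chr1:150428512-150428661 on the plus strand, in an intron of Tpr near an internal transcript start. Cab39 (a scaffold of the kinase LKB1) lies at chr1:85794225-85794374 on the plus strand, in an intron. The lncRNA Gm14023 lies at chr2:129297445-129297594 on the plus strand, in an intron. Parvb (a focal adhesion protein) lies at chr15:84231310-84231459 on the plus strand, outside any gene.
Stmn1: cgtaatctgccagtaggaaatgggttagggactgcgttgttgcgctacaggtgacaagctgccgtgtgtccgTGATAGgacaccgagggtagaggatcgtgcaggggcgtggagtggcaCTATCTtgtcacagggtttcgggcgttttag
Snx1: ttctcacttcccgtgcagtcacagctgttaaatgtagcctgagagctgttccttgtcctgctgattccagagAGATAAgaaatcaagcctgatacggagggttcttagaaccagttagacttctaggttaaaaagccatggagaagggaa
Tpr: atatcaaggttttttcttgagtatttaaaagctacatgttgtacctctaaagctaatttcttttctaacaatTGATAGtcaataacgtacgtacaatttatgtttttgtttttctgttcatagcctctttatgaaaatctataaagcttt
Cab39: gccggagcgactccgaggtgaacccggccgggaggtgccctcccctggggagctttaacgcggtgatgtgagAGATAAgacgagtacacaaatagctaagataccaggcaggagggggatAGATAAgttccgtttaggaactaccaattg
Gm14023: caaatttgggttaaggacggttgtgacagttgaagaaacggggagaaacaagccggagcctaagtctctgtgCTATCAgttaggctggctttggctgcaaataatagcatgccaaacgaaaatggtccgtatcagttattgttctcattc
Parvb: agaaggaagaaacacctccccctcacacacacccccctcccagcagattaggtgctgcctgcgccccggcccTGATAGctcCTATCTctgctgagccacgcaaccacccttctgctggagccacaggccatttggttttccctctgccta

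A further pair called in no GATA6 library is shown because it holds no GATA motif, which was the more frequent case. The capitals mark GGGCGG, the core bound by SP and KLF proteins, on either strand. Gm38431 lies at chr9:21092009-21092158 on the minus strand, within an intron of the gene 1700084C06Rik. Ggta1, the enzyme that makes the alpha-gal epitope, lies at chr2:35463536-35463685 on the minus strand, outside any gene.
Gm38431: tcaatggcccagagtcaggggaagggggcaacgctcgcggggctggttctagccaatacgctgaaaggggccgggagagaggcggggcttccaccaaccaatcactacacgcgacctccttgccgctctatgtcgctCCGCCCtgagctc
Ggta1: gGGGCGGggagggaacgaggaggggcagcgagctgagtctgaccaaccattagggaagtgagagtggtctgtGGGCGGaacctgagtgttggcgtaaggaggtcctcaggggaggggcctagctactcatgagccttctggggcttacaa

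The largest group of members was called in 2 GATA6 libraries, and a pair of these without a GATA motif is shown with the ETS core CCGGAAG in capitals, on either strand. Ccdc130 lies at chr8:84270494-84270643 on the minus strand, outside any gene. Lcmt1, the methyltransferase of the phosphatase PP2A, lies at chr7:123377811-123377960 on the plus strand, in an intron.
Ccdc130: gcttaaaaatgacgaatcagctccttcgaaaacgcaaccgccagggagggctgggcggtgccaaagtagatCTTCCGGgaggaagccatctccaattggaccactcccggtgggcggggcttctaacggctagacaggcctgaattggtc
Lcmt1: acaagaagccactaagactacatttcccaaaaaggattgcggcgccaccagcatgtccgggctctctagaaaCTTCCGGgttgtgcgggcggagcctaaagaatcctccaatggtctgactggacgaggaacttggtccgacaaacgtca

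Most of these promoters, though absent from the combined GATA6 list, were called in a GATA6 library. At least 1 of the 3 GATA6 libraries had a region overlapping 1745 members (88.5%, 95% Clopper-Pearson interval 87.0 to 89.9). Of all members, 590 (29.9%) were called in 1 GATA6 library, 1122 (56.9%, 54.7 to 59.1) in 2, and 33 (1.67%) in all 3. The 33 met GATA6 regions at places that did not chain into a common GATA6 region, so the combined list has none there. The remaining 227 members (11.5%, 10.1 to 13.0) overlapped no region in any GATA6 library. This share was 26.3% to 26.5% when any 1 GATA6 library was left out, 17.5% and 18.5% without GATA4 replicate 2 or 3, and 39.3% when a call in 2 of 3 libraries sufficed for both factors. Among all 4023 promoter regions of the combined GATA4 list the 227 made up 5.64%. The name GATA4-list-only therefore describes the combined lists and not the GATA6 libraries. All intervals on shares of regions or genes cover counting error only.

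No single GATA6 library accounted for the missing calls. GATA6 replicate 1 held 1016 members (51.5%), replicate 2 held 914 (46.3%) and replicate 3 held 1003 (50.9%), a mean of 49.6% ± 2.82 (SD, n = 3). The members called in exactly 2 libraries lacked a call in replicate 2 in 424 cases, in replicate 3 in 353 and in replicate 1 in 345. The members called once were found in replicate 1 in 206 cases, in replicate 3 in 201 and in replicate 2 in 183.

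Distal GATA4-list-only regions had fewer GATA6 calls. Each GATA6 library held 42.3% ± 3.35 (SD, n = 3) of them, against 49.6% ± 2.82 of the members, and 521 of 2566 (20.3%, interval 18.8 to 21.9) were called in no GATA6 library. The share with no GATA6 call was thus higher away from promoters than at the members, with intervals that did not overlap.

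**Figure D1:**
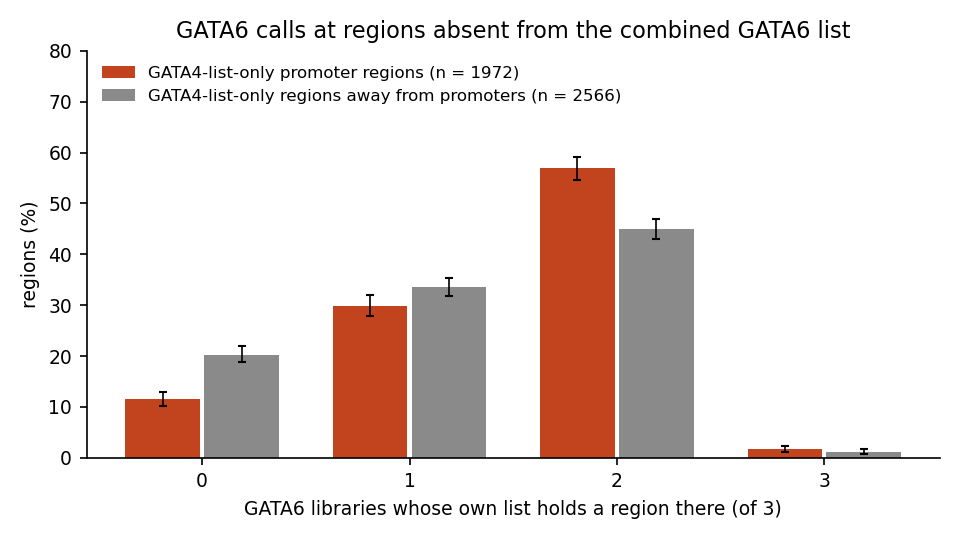
Share of regions (y axis, percent) by the number of GATA6 libraries whose own list overlaps them (x axis), for the 1972 GATA4-list-only promoter regions and the 2566 distal GATA4-list-only regions; bars are shares and whiskers 95% Clopper-Pearson intervals. The tallest bar of the promoter regions stands at 2 libraries (56.9%), and 11.5% of them stand at 0, against 20.3% of the distal regions.

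How often a promoter call is repeated in a further library was measured on the single-library lists. Promoter regions called in 2 GATA4 libraries were called again in the GATA4 library left out in 81.3%, 79.4% and 78.3% of cases (mean 79.6% ± 1.54, SD, n = 3). The same regions were called in the GATA6 libraries in 66.3% to 69.9% of cases (mean 68.6% ± 1.44 over 9 values, which share libraries). The difference within a left-out set averaged 11.1 percentage points ± 1.11 (SD, n = 3), so a further GATA4 library held more of these promoters than a GATA6 library in each of the 3 sets. The opposite question gave another order. Promoter regions called in 2 GATA6 libraries were called in the third GATA6 library in 74.0% ± 2.42 of cases (SD, n = 3) and in the GATA4 libraries in 81.4% ± 1.03 (9 values). GATA4 libraries therefore held more of the promoters of either factor, and their lists were longer. In lists of equal length the first difference was 10.6 percentage points, and the opposite question was not repeated in such lists. Away from promoters the first question gave 64.9% ± 1.69 for GATA4 (SD, n = 3) and 50.3% ± 1.49 for GATA6 (9 values).

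Members carried less GATA4 signal than shared promoter regions. Signal is the fragment pileup summed over a region, unscaled for depth, and was used only as the percentile rank among all regions of the same library, taking the highest-ranked library region that overlaps the combined region. The median percentile of the members was 84.5, 84.4 and 83.0 in GATA4 replicates 1, 2 and 3, and that of the shared promoter regions was 93.4, 92.7 and 93.1. The members were lower in all 3 libraries, by a mean of -9.09 percentile points ± 0.93 (SD, n = 3). The highest number of stacked fragments, the maximum signal, had a median of 7 in every GATA4 library at the members and of 9 or 10 at shared promoters. In the GATA6 libraries that called them, the members had a median percentile of 80.6 ± 0.81 and the shared promoter regions of 92.7 ± 0.41 (SD, n = 3). Distal GATA4-list-only regions ranked near the members, at 83.0 ± 1.17 in the GATA4 libraries (SD, n = 3).

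GATA4 signal and the number of GATA6 calls rose together. The median GATA4 percentile was 73.3 ± 1.31 for members called in no GATA6 library, 80.7 ± 1.34 for 1, 86.7 ± 0.44 for 2 and 88.6 ± 4.39 for all 3 (SD over 3 GATA4 libraries). The groups of 2 and of 3 did not differ beyond that spread. When the members were split by mean percentile into 4 classes of 493, 21.9% of the lowest class had no GATA6 call, and the next classes had 12.6%, 8.32% and 3.25%. The members without a GATA6 call thus ranked lower than the other members, and 16 of the 493 strongest members were among them. Their medians lay above the middle of all regions of a library. Every member had to be called in all 3 GATA4 libraries, so the choice itself favoured such ranks.

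**Figure D2:**
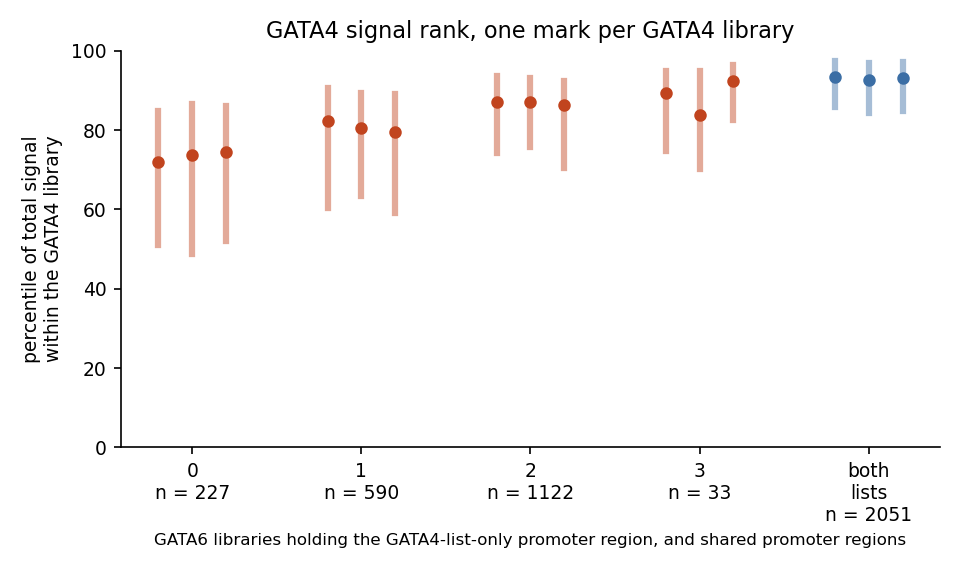
Percentile rank of total signal within each GATA4 library (y axis) for members grouped by the number of GATA6 libraries that called them and for shared promoter regions (x axis); each dot is the median in 1 library, in the order replicate 1, 2, 3, and each bar its quartiles. Medians lie between 71.9 and 74.4 at 0 GATA6 libraries and between 86.2 and 87.0 at 2, and all 3 shared medians lie above 92.

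The 12 members of highest mean GATA4 percentile among those called in no GATA6 library belonged to genes of varied function. The first was at C130036L24Rik, a lncRNA gene (chr1:86359116-86360651), with percentiles of 89.2, 93.1 and 98.2 in GATA4 replicates 1, 2 and 3. The second lay between Orc1, a subunit of the origin recognition complex, and Prpf38a, a splicing factor (chr4:108579081-108580137), and had percentiles of 90.0, 91.9 and 98.3 and maximum signals of 10, 5 and 18 fragments. The third, at Stmn1 (chr4:134467279-134468495), had percentiles of 93.5, 89.3 and 96.4 and holds the 2 GATA motifs printed above. All 3 regions therefore ranked at 89.2 or higher in every GATA4 library and were in no GATA6 list.

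Genes of protein synthesis and membrane traffic stood among the others. Iars, the cytosolic isoleucyl-tRNA synthetase (chr13:49681793-49682825), had percentiles of 91.4, 91.9 and 95.7, with its midpoint at 118.5 bp after the TSS. Rab6a, a small GTPase of the Golgi, shared its region with Mrpl48, a mitochondrial ribosomal protein (chr7:100607229-100607826; percentiles 89.0, 93.5 and 86.8). Sacm1l, a phosphoinositide phosphatase of the endoplasmic reticulum and Golgi (chr9:123529213-123530025), had percentiles of 89.3, 87.8 and 92.3. The percentiles of these 3 regions all lay between 86.8 and 95.7. Arl16, a small GTPase gene (chr11:120467220-120467903), had 90.4, 92.7 and 89.8. The zinc finger genes Zfp639 (chr3:32509965-32511332) and Zfp870 (chr17:32891055-32891976) had 94.7, 92.2 and 92.3 and 88.7, 82.8 and 96.6. Gm38431 had 92.3, 91.5 and 93.3, Sh3tc1 84.0, 97.8 and 91.3, and Ggta1 91.9, 85.9 and 90.4. Of the 12 regions, Stmn1 alone held a GATA motif within 100 bp of its midpoint, and 80.6% of all members held none there.

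Members called in 2 GATA6 libraries reached higher GATA4 ranks. The 5 highest were at Dmrt1i, Tbc1d17, Adpgk, Cish and Inpp5a. Dmrt1i, a lncRNA gene (chr5:144356964-144358926), had GATA4 percentiles of 99.2, 99.2 and 99.3 and GATA6 maximum signals of 8 fragments in replicates 1 and 3. Cish, a cytokine-induced inhibitor of STAT signalling (chr9:107295359-107297192), had GATA4 percentiles of 99.5, 97.6 and 99.4, with GATA6 maxima of 5 and 6 fragments in replicates 2 and 3. Adpgk, an ADP-dependent glucokinase (chr9:59290377-59291757), had 99.2, 98.8 and 98.6, with GATA6 maxima of 5 and 9 in replicates 1 and 2. A different GATA6 library was missing at each of these 3 promoters. Tbc1d17, a GTPase-activating protein gene for RAB proteins (chr7:44848265-44849306), had 99.4, 99.3 and 98.5, and lacked replicate 3. Inpp5a, an inositol phosphatase gene (chr7:139388508-139389142), had 98.3, 98.6 and 98.8, and lacked replicate 1. None of the 5 held a GATA motif in the 200 bp window, which 80.6% of all members lacked.

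Of the 33 members called in all 3 GATA6 libraries, Dnpep, Rab11b and Gm4189 ranked highest. Dnpep, an aspartyl aminopeptidase (chr1:75316802-75318217), had GATA4 percentiles of 99.3, 99.5 and 98.8, and GATA6 maxima of 11, 5 and 10 fragments. Rab11b, a GTPase of recycling endosomes (chr17:33759605-33760923), had 99.5, 99.2 and 96.4. The region at the lncRNA Gm4189 (chr10:127289689-127291001) also served Ddit3, the stress-induced transcription factor CHOP, and had 98.1, 95.6 and 99.0. These are promoters where both factors were called in every library and the combined lists still part them.

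Most members lay over a TSS. The region covered an annotated TSS in 1746 cases (88.5%), the midpoint was upstream of the nearest TSS in 1341 (68.0%), and the median position was -50 bp (quartiles -164 and 16.6 bp). Within 250 bp of the TSS lay 1542 midpoints (78.2%). Shared promoter regions had nearly the same midpoints, with a median of -60.5 bp, 69.5% upstream and 79.5% within 250 bp. They covered a TSS somewhat more often (93.4%). Members were somewhat narrower, with a median width of 689 bp (quartiles 540 and 864, range 189 to 2258) against 772 bp. All 3 GATA4 libraries covered a common base in 1903 members (96.5%), and in 69 they joined only by a chain of overlaps. At shared promoter regions the share with a common base was 98.6%.

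**Figure D3:**
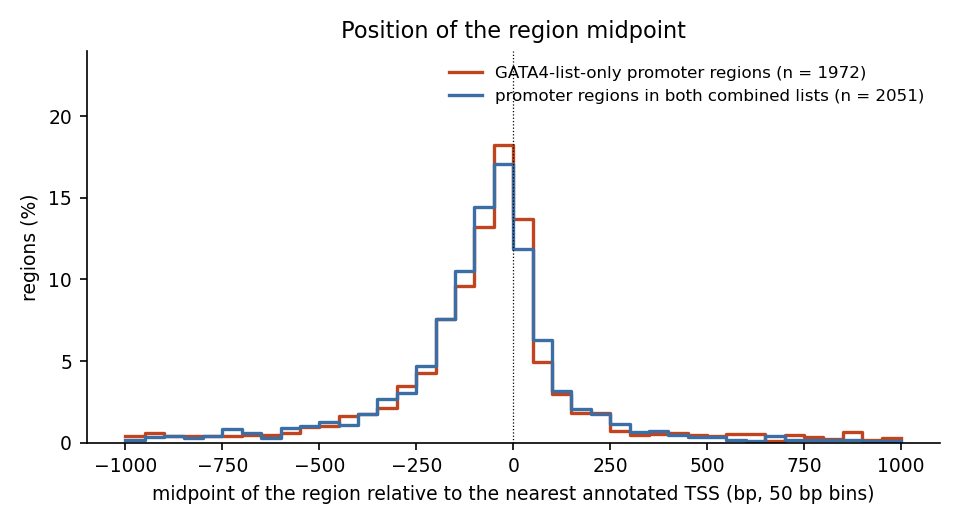
Distance of the region midpoint from the nearest annotated TSS (x axis, bp, negative upstream, 50 bp bins) against the share of regions (y axis, percent) for 1972 members and 2051 shared promoter regions. Both outlines peak in the bin just upstream of the TSS and overlie each other over the rest of the axis.

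The distance limit parted similar regions. Just inside 1 kb stood Stra6, a retinol transporter (998 bp, called in no GATA6 library) and Zfyve21 (994.5 bp), and just outside stood Crygn (1010 bp), Zdhhc14 (1012.5 bp) and Gpx4 (1014 bp). The overlap limit was close in few cases. The nearest combined GATA6 region lay 34 bp away at Lzts2, 48 bp at Rbpms and 50 bp at Cd244a, and 65 members (3.30%) had one within 1 kb, while the median gap was 62313.5 bp.

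The members served 2104 of 21938 protein-coding genes (9.59%) and 347 lncRNA genes. In 480 members (24.3%) TSSs of both strands lay within the 1 kb limit, as at Orc1 with Prpf38a and at Rab6a with Mrpl48. The share was much the same at shared promoter regions (25.4%). A shared promoter region was also present at 104 of the 2104 genes (4.94%), against 2227 of all 21938 protein-coding genes (10.2%). Each combined region is either a member or shared, so a gene with a single promoter region could not have both. Of the 2104 genes, 55 had 2 or more members. Grb2, Dhcr7, Lin28a and Smad7 were among these. The combined GATA4 list is dense on chromosomes 8, 14 and 19, where most promoter regions were shared. There 257 of 839 promoter regions were members (30.6%, interval 27.5 to 33.9), against 1694 of 3150 on the other autosomes (53.8%, 52.0 to 55.5), while the share of genes with a member was 10.3% and 9.96%.

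Members had the base composition of CpG-rich promoters. In the 200 bp around the midpoint the median GC content was 60.0% at members and at shared promoter regions, 48.0% at distal regions and 58.5% at the starts of all protein-coding genes. Windows with at least 50% GC and an observed over expected CpG ratio of at least 0.6, as in CpG islands, made up 63.2% of members (interval 61.0 to 65.3), 63.2% of shared promoter regions and 3.62% of distal regions, against 48.0% of protein-coding gene starts. Members called in no GATA6 library were less often of this kind, 52.4% (45.7 to 59.1) against 66.2% (63.4 to 69.0) of those called in 2.

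A GATA motif was found in 382 members (19.4%, interval 17.6 to 21.2) within 100 bp of the midpoint. Shared promoter regions held it in 17.9% (16.3 to 19.6) and distal regions in 60.5% (58.6 to 62.4). All protein-coding gene starts held it in 16.1% (15.7 to 16.6) and all annotated TSSs in 18.6% (18.4 to 18.9). The members' interval held the value of all annotated TSSs and lay above that of gene starts. The difference between members and shared promoters was 1.48 percentage points (95% interval -0.96 to 3.92), and it was -0.79 (-3.86 to 2.28) when the letters GATA alone were sought. The interval lay above 0 under other settings: the difference was 4.99 (3.04 to 6.96) when a call in 2 of 3 libraries sufficed, 3.63 (1.17 to 6.08) with a 2500 bp window, 2.52 (0.30 to 4.72) without GATA4 replicate 1 and 2.35 (0.19 to 4.49) without GATA4 replicate 3. Members with the motif had it once in 294 cases, 2 times in 66, 3 times in 16 and 4 times in 6. The motif was seen in 22.5% (17.2 to 28.5) of members called in no GATA6 library and in 18.2% (16.0 to 20.6) of those called in 2, with overlapping intervals. Around the maximum of signal in each GATA4 library the share was 19.5% to 21.2% at members (mean 20.2% ± 0.91, SD, n = 3) and 18.1% ± 0.18 at shared promoters.

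The share with the motif varied with position and GC content. Members within 250 bp of a TSS held it in 15.2% (13.4 to 17.1), near the 16.1% of all gene starts, and the 430 farther away in 34.4% (29.9 to 39.1). Shared promoter regions gave 14.3% and 31.8%. In windows of under 40% GC it was present in 26 of 42 members (61.9%), at 40 to 50% in 47.8% (41.2 to 54.5), at 50 to 60% in 23.9% (20.7 to 27.3), at 60 to 70% in 9.97% (7.95 to 12.3) and at 70% or more in 2.80% (1.13 to 5.68). All annotated TSSs of the same GC classes held it in 43.3%, 31.4%, 18.4%, 7.00% and 1.96%, and shared promoter regions in 54.5%, 40.3%, 22.4%, 9.11% and 3.98%. In the first 4 classes the members' intervals lay above the value of all TSSs, and shared promoter regions were higher than all TSSs as well. Windows of regions were centred on the midpoint and those of TSSs on the TSS, so position was not matched. The members' intervals held the shared value in every class but that of 40% to 50% GC, where the shared value lay just below. The distal regions held it in 68.1% at 40 to 50% GC and 51.5% at 50 to 60%. Of the windows printed above, those with a GATA motif ran from 26.7% GC at Tpr to 60.0% at Parvb.

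**Figure D4:**
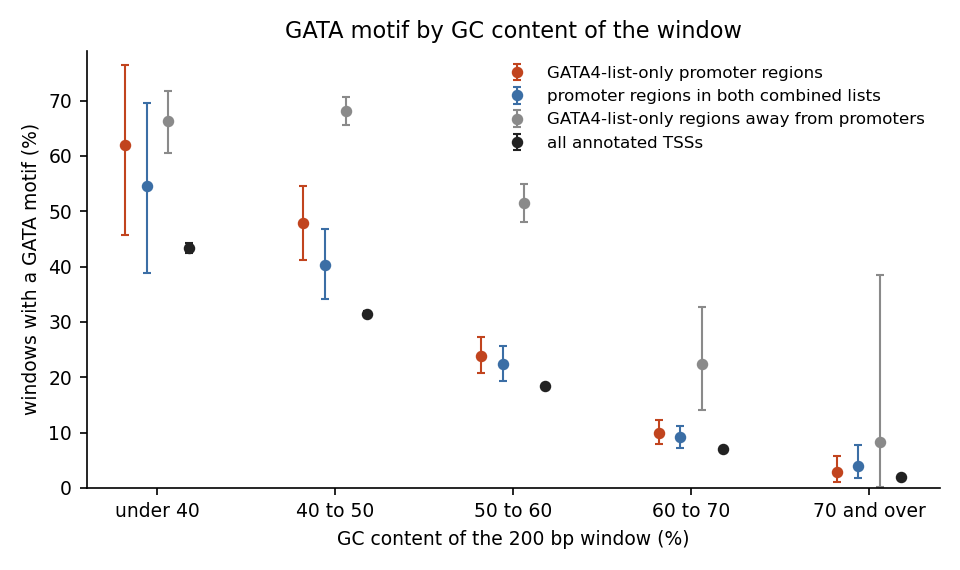
Share of 200 bp windows with a GATA motif (y axis, percent) by GC content of the window (x axis, 5 classes) for members, shared promoter regions, distal regions and all annotated TSSs; dots are shares and whiskers 95% Clopper-Pearson intervals. The share at members falls from 61.9% to 2.80% as GC rises and lies between that of all TSSs and that of distal regions.

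The motifs of general promoter factors were common at members. GGGCGG was found in 50.2% of members (47.9 to 52.4) against 40.0% of protein-coding gene starts, and CCAAT, the NFY core, in 36.5% (34.4 to 38.7) against 28.1%. Shared promoters were close to the members for both, at 52.2% and 35.1%, and distal regions had 8.26% and 23.2%. CCGGAAG, the ETS core, was in 10.1% of members (8.84 to 11.6), 12.1% of shared promoters and 9.58% of gene starts. TATAAA was in 3.4% of members (2.64 to 4.29), 3.17% of shared promoters, 7.91% of distal regions and 8.07% of gene starts. Members and shared promoters thus both held these letters less often than gene starts. The letters were sought anywhere in the window, so they do not mark a TATA box at a set distance from a TSS.

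The NRF1 motif was less frequent at members than at shared promoters. GCATGCGC, the core bound by NRF1, a regulator of mitochondrial and other housekeeping genes, was present in 77 members (3.90%, 3.09 to 4.86) and in 158 shared promoter regions (7.70%, 6.59 to 8.94), with 2.69% at all gene starts. The difference was -3.80 percentage points (-5.28 to -2.33), and it was -6.92 ± 0.09 (SD, n = 3) when the window was centred on the maximum of signal. This motif was 1 of 13 searched, and the comparison was singled out after its values were seen.

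The other motifs, apart from SOX sequences, gave small shares at members. Members held the cyclic AMP response element TGACGTCA in 2.54%, the E-box CACGTG in 7.10%, AAGATGGCG (YY1) in 1.57% and the palindrome CTCGCGAG in 1.47%. Gene starts held these in 2.01%, 5.67%, 1.81% and 0.94%. The AP-1 motif, TGAGTCA or TGACTCA, was in 2.99% of members, 2.79% of gene starts and 8.73% of distal regions. FOXA sequences (TGTTTAC and also the variant TGTTTGC) were in 3.90% of members and 4.48% of gene starts, and SOX sequences (ACAAAG as well as the variant ACAATG and the variant ACAATA) in 18.6% and 19.3%. Distal regions held FOXA sequences in 6.74% and SOX sequences in 44.0%. All motifs were sought on both strands.

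Genes of the XEN and PrE programme had members at shares whose intervals held the background. Among 20 transcription factors of the lineage 2 had a member, Gata4 and Foxa2, and 4 had a shared promoter region. The share of 10.0% stood beside 9.59% of all protein-coding genes. The region at Gata4 itself (chr14:63271471-63272177, midpoint at -132.5 bp) had GATA4 percentiles of 77.8, 87.9 and 39.5, maximum signals of 5, 4 and 5 fragments and 2 GATA motifs. GATA6 replicate 3 alone also called it, with a maximum of 3 fragments. Foxa2, a forkhead factor of endoderm (chr2:148045762-148046711), had percentiles of 64.1, 68.2 and 54.0 and was called in GATA6 replicate 3 as well. Both ranked below the median member in at least 2 GATA4 libraries.

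Of 44 effector genes of the lineage, 8 had a member (18.2%, interval 8.19 to 32.7, against 9.59% of all protein-coding genes) and 13 a shared promoter region. Matrix and adhesion genes ranked first. Lamb2, a laminin chain of basement membrane (chr9:108478584-108479165), had percentiles of 88.3, 94.8 and 82.3, and Itgb1, the integrin beta 1 chain (chr8:128685228-128685961), had 93.5, 88.2 and 78.3. Both were called in 2 GATA6 libraries. The region at Pdgfra, a receptor that marks PrE (chr5:75156599-75157325, 129.5 bp after the TSS), was called in no GATA6 library, had percentiles of 22.7, 63.9 and 84.0 and held 2 GATA motifs. Pdgfra also had a shared promoter region within 1 kb of one of its TSSs. Vim, the intermediate filament vimentin (92.4, 58.0 and 76.2), and Ctsl, cathepsin L (38.9, 16.4 and 48.6, with 1 GATA motif), were likewise in no GATA6 list. Kit, the stem cell factor receptor (24.5, 86.7 and 81.1), was called in 2 GATA6 libraries, and Snai1, a repressor of E-cadherin, and the WNT inhibitor Dkk1 (5.33, 28.7 and 47.0) in 1. Their GATA4 ranks varied widely between libraries, as at Snai1, with 61.6, 9.59 and 78.1.

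Among partners of GATA factors 4 of 24 genes had a member (16.7%, interval 4.74 to 37.4), against 9.59% of all protein-coding genes. Gata2, a GATA factor of blood, had percentiles of 97.4, 85.0 and 73.5 and was called in GATA6 replicates 2 and 3. Lmo4, a LIM-only adaptor, had 86.4, 86.8 and 74.7 and was called in no GATA6 library. The coactivator gene Ep300 had 86.6, 58.0 and 76.2, and Zfpm1, which encodes the cofactor FOG1, had 3.87, 86.3 and 79.6 and also had a shared promoter region. None of these 4 regions held a GATA motif, which 80.6% of all members lacked. Among 19 AP-1 genes Atf3 and Batf2 had a member (10.5%), each called in 1 GATA6 library, and among 26 pluripotency genes Tbx3, Lin28a and Mybl2 (11.5%). The intervals of the member shares of all 3 lists held 9.59%. A shared promoter region lay at 1 partner gene, 4 AP-1 genes and 2 pluripotency genes. Atf3, a stress-induced factor, had percentiles of 41.8, 84.0 and 87.7 and 2 GATA motifs, and Batf2 had 43.5, 91.3 and 45.7. Tbx3, a T-box factor, had the highest ranks of the 3 pluripotency genes, with 88.3, 97.7 and 94.9. Mybl2, a cell cycle factor, had 79.6, 94.4 and 73.5 with 2 GATA motifs, and the better-ranked region at Lin28a, an RNA-binding protein of stem cells, had 68.9, 87.9 and 95.5.

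Among signalling genes the lists differed in their share with a member. FGF and ERK genes had 9 of 45 (interval 9.58% to 34.6%) and 4 shared promoters, WNT genes 8 of 35 (22.9%, 10.4 to 40.1) and 3 shared, and TGF-beta and BMP genes 8 of 35 (22.9%) and 4 shared. The intervals of the WNT and the TGF-beta and BMP lists lay above 9.59% and that of the FGF and ERK list reached below it. Notch genes had 4 of 23 (17.4%, 4.95 to 38.8) and Hippo genes 2 of 20 (10.0%, 1.23 to 31.7), with intervals that also held 9.59%.

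The FGF and ERK list held genes with a member called in no GATA6 library, among them Grb2, Araf, Fgfr3 and Rps6ka1. Grb2, the adaptor that links receptors to RAS, had a region of this kind with percentiles of 58.8, 86.6 and 65.3, and a second member, called in GATA6 replicates 1 and 3, with 94.4, 95.6 and 8.88. Araf, a RAF kinase, had 76.0, 82.0 and 28.0. Both genes act in one cascade, and their regions without a GATA6 call had percentiles from 28.0 to 86.6. Fgfr3, an FGF receptor, had 14.4, 79.9 and 87.9, and Rps6ka1, a kinase downstream of ERK, had 36.6, 58.4 and 64.1 with 2 GATA motifs. Members with a GATA6 call lay at Sos1, the exchange factor of RAS (83.4, 65.7 and 96.7, with 2 GATA motifs), the ETS factor Etv4 (90.7, 78.5 and 60.8), and the ERK phosphatases Dusp6 (80.7, 87.8 and 54.8) and Dusp7 (73.8, 26.6 and 93.1), which were each called in 1 or 2 GATA6 libraries.

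In the WNT list all 8 regions were called in at least 1 GATA6 library, as were 88.5% of all members. They covered the receptors Fzd2, Fzd4, Fzd5 and Fzd7, the destruction complex members Gsk3b and Apc, and the nuclear components Bcl9l and Tcf7l2. Gsk3b (chr16:38088723-38089707) had percentiles of 98.9, 99.0 and 94.4, and Fzd5 84.8, 94.5 and 98.0. Apc (94.4, 89.9 and 91.4), Bcl9l (94.3, 92.4 and 75.6) and Fzd7 (91.3, 91.0 and 72.8) ranked close to the median member or above it in at least 2 libraries. Fzd2 (78.0, 38.9 and 75.8), Tcf7l2 (33.7, 76.9 and 80.7) and Fzd4 (15.2, 67.2 and 79.8) ranked below the median member in all 3. No WNT member held a GATA motif in the window, which 80.6% of all members lacked. The TGF-beta and BMP members lay at the signal transducers Smad2, Smad4 and Smad5, the inhibitors Smad6 and Smad7, the ubiquitin ligase Smurf1, the target Id1 and the receptor Tgfbr1. Smad5 (chr13:56702544-56704577) had 98.2, 96.3 and 97.3, Smad4 78.5, 93.3 and 95.1, and the higher of the 2 members at Smad7 93.4, 90.8 and 97.7. Smad2 had 93.3, 17.3 and 84.4, Smad6 68.9, 75.5 and 92.4, and Smurf1 79.8, 95.2 and 69.4, so their ranks differed between libraries. Tgfbr1, with 78.2, 55.5 and 25.1, was the only one of the 8 genes called in no GATA6 library.

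Hes1, a target and repressor of the Notch pathway, had percentiles of 94.6, 95.3 and 97.1. Adam17 and Maml1, a protease and a coactivator of that pathway, were called in 1 and 2 GATA6 libraries, and Aph1a, a subunit of gamma-secretase, in none (86.4, 88.9 and 76.8). In the Hippo list, Nf2 had 96.9, 85.2 and 91.4 and Wwtr1, which encodes TAZ, 90.8, 90.2 and 53.9, and both were called in 2 GATA6 libraries.

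Lists of housekeeping genes had members above the background. Oxidative phosphorylation genes had a member in 28 of 102 (27.5%, interval 19.1 to 37.2), aminoacyl tRNA synthetases in 10 of 35 (28.6%, 14.6 to 46.3), general transcription factors and RNA polymerase II in 19 of 82 (23.2%, 14.6 to 33.8), chaperones and ER stress genes in 20 of 90 (22.2%, 14.1 to 32.2), mitochondrial ribosomal proteins in 17 of 78 (21.8%, 13.2 to 32.6) and splicing factors in 14 of 65 (21.5%, 12.3 to 33.5). Each of these intervals lay above 9.59%. A shared promoter region lay at 2227 of all 21938 protein-coding genes (10.2%). The shares of these lists were higher, though that of chaperones and ER stress genes (11.1%) was close to it. Genes with a shared promoter region were about as many as those with a member among aminoacyl tRNA synthetases (11, 31.4%), general transcription factors (20, 24.4%) and splicing factors (15, 23.1%). In these lists the raised share was thus not particular to the members. Genes with a shared promoter region were fewer among oxidative phosphorylation genes (20, 19.6%), mitochondrial ribosomal proteins (12, 15.4%) and chaperones and ER stress genes (10, 11.1%). These differences were not tested.

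The members named from these lists, which the naming rule took for their high GATA4 rank, were mostly called in 2 GATA6 libraries. So were 56.9% of all members. Ndufb4, a complex I subunit (chr16:37654134-37654914), had percentiles of 95.4, 98.3 and 94.6, and Sdha, the flavoprotein of complex II (chr13:74349999-74350815), had 94.2, 96.4 and 97.4. Among the synthetases Qars had 95.4, 97.1 and 90.4, Kars 97.2, 86.1 and 91.2, and Nars2 93.8, 91.1 and 92.1. Taf1c, a subunit of the RNA polymerase I factor SL1 (chr8:119604998-119605567), had the tallest pileups of the genes named from these lists, with 18, 19 and 15 fragments. Mrpl18, a mitochondrial ribosomal protein, had 95.5, 90.4 and 96.8, and Hspa9, the mitochondrial HSP70, 94.7, 91.5 and 94.3.

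Further lists of basic functions gave a range of shares. Cell cycle and replication genes had a member in 27 of 132 (20.5%, interval 13.9 to 28.3), chromatin regulators in 20 of 106 (18.9%, 11.9 to 27.6) and secretory and endocytic traffic genes in 39 of 227 (17.2%, 12.5 to 22.7), all above 9.59%. Genes with a shared promoter region numbered 23, 13 and 51 in these lists, in the same order. E2f3, an activator of S-phase genes, had percentiles of 96.1, 94.4 and 97.4, and Kat7, a histone acetyltransferase, had 99.1, 95.7 and 98.6. Cytosolic ribosomal proteins had 14 of 84, translation initiation factors 8 of 55, ubiquitin genes 24 of 178 and proteasome subunits 6 of 50, with intervals that reached 9.59% or below. Their genes with a shared promoter region numbered 8, 10, 23 and 11. Cholesterol synthesis genes had 6 of 24 (interval 9.77% to 46.7%), and 6 had a shared promoter region. Examples were Rpl18 (96.3, 78.4 and 88.5), Eif4g2 (90.4, 95.7 and 91.6), Usp1 (97.6, 95.2 and 95.9), Psmd10 (90.5, 88.8 and 83.0) and Hmgcs1 (95.2, 77.6 and 84.7). C2H2 zinc finger genes named Zfp had 36 of 394 (9.14%), and olfactory receptors had 1 of 1134 (0.088%), at Olfr145. A shared promoter region lay at 47 of the Zfp genes and at 1 olfactory receptor gene.

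Replication-dependent histone genes had the largest share of all lists, with 20 of 67 (29.9%, interval 19.3 to 42.3) against 8 with a shared promoter region. The 20 genes rested on 14 regions, since divergent histone genes share a promoter, as Hist1h2ag and Hist1h2bj did (chr13:22042777-22043484; percentiles 94.8, 95.8 and 87.4). Hist1h3a had 97.1, 97.4 and 88.7, with 2 GATA motifs in a window of 34.5% GC, and the linker histone gene Hist1h1a had 95.8, 91.9 and 81.0. Histone genes are near-identical copies in clusters, so reads could be split between them or lost to the filter on mapping quality, and their part in the calls was not tested. The 27 lists were not tested against one another, and genes that are inactive in these cells remain in every denominator.

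**Figure D5:**
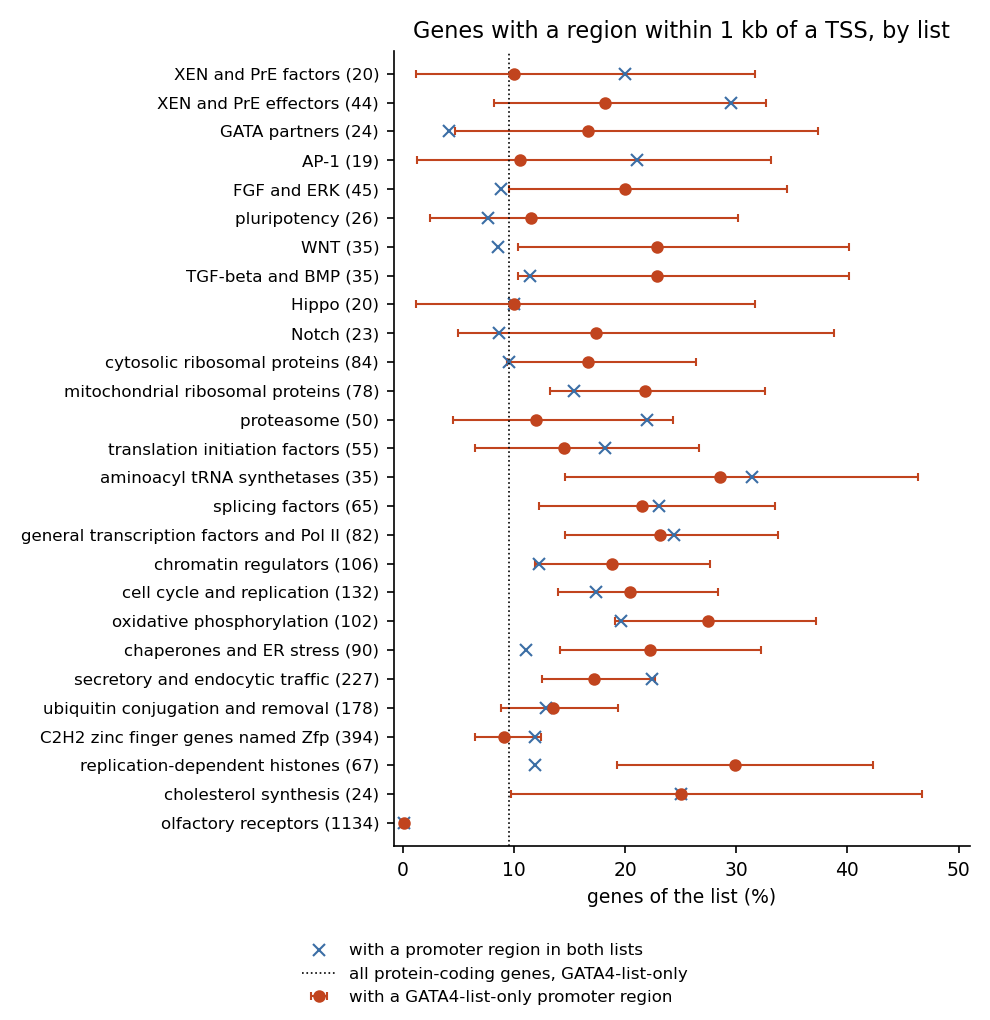
Share of the genes of each list (x axis, percent; number of genes in brackets) with a GATA4-list-only promoter region (dots, whiskers are 95% Clopper-Pearson intervals) and with a shared promoter region (crosses); the dotted line is the 9.59% of all protein-coding genes with a member. Replication-dependent histones (29.9%) and aminoacyl tRNA synthetases (28.6%) stand farthest right, and olfactory receptors stand near 0.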

How the data were processed

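The authors mapped the read pairs to mm10 (Bowtie2 2.3.4.1), filtered out duplicates, poorly mapped and mitochondrial reads and blacklisted sequence, and called regions in each library with SEACR 1.3. The methods text words the option as non stringent, whereas the deposited lists are labelled stringent, and an IgG control is not part of the call as described. The lists deposited per library give total and maximum signal (fragment pileup), unscaled for depth, so signal was compared only as a percentile rank within a library. The combined lists hold positions of regions called in all 3 libraries of a factor. They were remade exactly by merging.

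TSSs came from GENCODE M21 and sequence from GRCm38. Overlap meant at least 1 bp. Shares carry 95% Clopper-Pearson intervals, and a difference of 2 shares an interval built from these. The rank difference is a description: its two-sided exact sign-flip permutation over 3 libraries gave p = 0.25, the smallest such a test can give, and supports nothing. Python 3.11.15, numpy 2.4.6, scipy 1.17.1 and matplotlib 3.10.9 were used, and the code was tested on simulated data. The members, the 27 gene lists, the 13 motifs and the naming rules were chosen with earlier results of these data known. Named were the 12, 5 and 3 members of highest mean percentile called in 0, 2 and 3 GATA6 libraries, members of the lineage, partner and signalling lists, and up to 4 genes of each other list. Regions next to the distance limit were also named. Some items these rules would name are not reported here. Alternatives were other windows, annotations, overlap rules, list lengths and scales, and leaving out each library.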

Additional observations from a re-analysis of the deposited data

How the results depend on the processing

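No paired analysis was possible because no comparison between the factors was tested, and the labels do not say that libraries of the same number share a batch of cells. The number of members was 1529 to 2585 under other settings and 1560 to 2876 without 1 library, and the rank difference kept its sign, at -12.5 to -8.86 without 1 library and -17.3 to -7.63 otherwise. The share of members called in no GATA6 library, 11.5%, was 39.3% when a call in 2 of 3 libraries sufficed for both factors and 13.4% in stricter lists. It was 16.8% to 26.5% without 1 library, with 17.5% without GATA4 replicate 2, 18.5% without GATA4 replicate 3, and 26.5%, 26.4% and 26.3% without GATA6 replicates 1, 2 and 3. These settings ask for fewer calls, or of fewer libraries, by construction. The share of protein-coding genes with a member was 8.85% with a 500 bp window, 10.9% with 2500 bp, 10.0% by the nearest edge, 11.4% with 2 of 3 libraries, 9.17% in lists of equal length, 7.61% in stricter lists, 8.34% without chromosomes 8, 14 and 19, and 7.61% to 13.3% without 1 library.

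The GATA motif difference of 1.48 points was 4.99 (interval 3.04 to 6.96) with 2 of 3 libraries and 3.63 (1.17 to 6.08) with a 2500 bp window, and 1.33 to 2.52 without 1 library, with an interval above 0 without GATA4 replicate 1 or 3. The NRF1 comparison and that of recall were added after the data were seen. The NRF1 difference was -7.07 with 250 bp to either side, -6.92 at the maximum of signal and -5.19 without chromosomes 8, 14 and 19, and was negative under every alternative run. The recall difference of 11.1 points was 10.6 in lists of equal length, 13.2 in stricter lists and 12.4 without chromosomes 8, 14 and 19. The GC difference of 0.0 points was 0.5 with a 500 bp window, -1.0 with 2500 bp, -2.5 with 2 of 3 libraries and -1.0 to 0.0 without 1 library. The causes of these shifts were not tested. Libraries hold few fragments per region, with a median maximum of 7 at members, so a missing call does not show that a factor was absent.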
